A study of Mus musculus with 4 samples.

Results

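Ancient LINE-1 repeats of the mouse genome were followed in RNA-seq libraries of wild-type (WT) and Pim3-/- embryonic stem cells (ESCs). They were the rows of the transposable element (TE) count table named L1MA, L1MB, L1MC, L1MD, L1ME or HAL1, 65 of its 1072 subfamilies. They were taken by name and not by their values. The names fall into 9 L1MA, 7 L1MB, 11 L1MC, 6 L1MD, 27 L1ME and 5 HAL1 subfamilies. The numbered subfamilies L1M1 to L1M8 and the mouse-specific L1Md elements were not among them.

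All libraries came from E14 ESCs, a mouse line whose strain is given as 12910la in the labels, grown on gelatin in serum medium with LIF, the cytokine that keeps ESCs undifferentiated. The WT group held 2 libraries of unedited cells (genotype wild type). The Pim3-/- group held 2 libraries from a pair of independent clones in which the kinase gene Pim3 had been cut by CRISPR/Cas9, and the labels do not tie a library to a clone. A difference between the groups cannot be told apart from one between these clones and the parental cells. RNA was treated with DNase and made into libraries with an mRNA kit.

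LINE-1 elements are retrotransposons that copy themselves through RNA with a protein that binds the RNA (ORF1) and a protein with endonuclease and reverse transcriptase activity (ORF2). The L1MA to L1ME subfamilies were spread in the ancestors of today's mammals, with L1MA the younger and L1ME the older end of the series, and HAL1 is a relative that kept ORF1 without the reverse transcriptase. Their copies are mutated and truncated, can no longer move, and lie scattered through introns and between genes, so that RNA from them is usually a piece of a longer transcript started elsewhere. A subfamily count adds up the reads on all its copies, and neither the copies nor the transcripts they lay in were separated here. No consensus sequence of these repeats was used here.

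The TE table held 546500 to 821065 counts per library and the gene table between 22029427 and 25668307. Pim3 itself had 4392 and 4953 WT counts against 4970 and 4804 counts in the libraries labelled Pim3-/-, so its gene-level count does not check the labels. Over all 18444 tested genes, 17.6% were upregulated and 16.2% downregulated at an adjusted p under 0.05 in edgeR. The summed level of 10 markers of pluripotent cells, of which 1 was upregulated and 4 were downregulated, was 9009 and 8681 CPM of the gene total (counts scaled to a common total of gene counts, without TMM factors) in WT against 8177 and 7805 in Pim3-/- ESCs. Primitive endoderm is the extraembryonic lineage next to the epiblast. Its summed markers were at 1.99 and 3.39 CPM in WT and at 35.0 and 19.0 in Pim3-/- ESCs. All 5 tested of the 8 listed (Gata4, Gata6, Sox17, Sox7 and Dab2) were upregulated. Sox7 had 3 and 0 WT counts against 91 and 67, and Sox17 1 and 5 against 85 and 10. Both passed the filter on low counts only through the Pim3-/- libraries. Dab2, with 4 and 17 against 189 and 46, passed it mainly through them. That all tested genes rose was thus partly set by the filter. Summed markers of trophoblast (114.5 and 120.5 against 127.3 and 161.5 CPM) and fibroblasts (19.5 and 20.3 against 34.2 and 26.9) did not overlap on this scale. Upregulated were 2 of 6 tested trophoblast genes, Eomes and Gata3, and 1 of 3 tested fibroblast genes, Pdgfra. Gata3, at 4 and 4 WT counts against 28 and 22, also passed the filter only through the Pim3-/- libraries. Col1a1 and Thy1 were not called. With TMM factors both sums overlapped. Trophoblast markers were then at 138.4 and 136.6 against 109.2 and 138.0, and those of fibroblasts at 23.55 and 22.96 against 29.4 and 23. The fall of the summed pluripotent markers was larger with TMM factors, from 10890 and 9840 in WT to 7014 and 6670 in Pim3-/- ESCs. Of 6 neuroectoderm markers 3 lay above 0 and none was upregulated. Only Tubb3, which held most of their counts, was downregulated in edgeR. The part of these other cell types in the repeat counts was not tested.

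Summed over the 65 subfamilies, ancient LINE-1 had 10918 and 14092 WT counts against 17181 and 18260 counts for Pim3-/-. Relative to the gene table this was 471.5 and 549.0 CPM of the gene total against 750.5 and 828.9, or 510.2 ± 54.8 (SD, n = 2) against 789.7 ± 55.4 (SD, n = 2), a ratio of 1.55. Both Pim3-/- libraries thus lay above both WT libraries. With the gene table's TMM factors, which set the typical gene to no change, the ratio was 1.13, beside 1.06 for all TEs. Relative to the TE table the difference was smaller. All TE counts were 2.36% and 2.65% of the gene counts in WT against 3.59% and 3.67% in Pim3-/- ESCs. The share of ancient LINE-1 among TE counts was 2.00% and 2.07% in WT and 2.09% and 2.26% in Pim3-/- ESCs, 2.03% ± 0.0514 against 2.18% ± 0.117 (SD, n = 2), a ratio of 1.07. The groups did not overlap in this share either, but the lower Pim3-/- library was closer to the higher WT library than to its own replicate. With 2 libraries a group, the smallest p of an exact two-sided permutation test is 0.333, so none is given for these sums. In such bulk samples, more cells with the transcripts and more RNA per cell cannot be told apart.

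**Figure D1:**
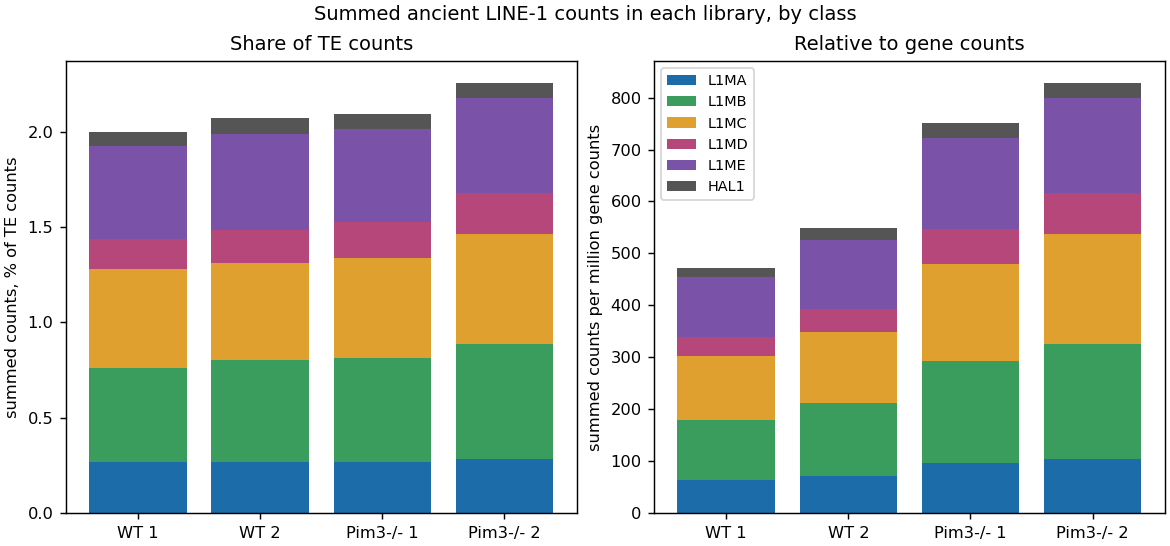
Summed counts of the ancient LINE-1 subfamilies in each of the 4 libraries, stacked by class, as a percentage of all TE counts (left) and in CPM of the gene total (right). Each bar is 1 library. The stacks differ little on the left, from 2.00% to 2.26%, and rise from 471.5 and 549.0 in WT to 750.5 and 828.9 in Pim3-/- ESCs on the right.

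The ratio differed between the classes, without a test for the reason given. Relative to gene counts, L1MD had the largest, with 37.2 and 45.5 CPM of the gene total in WT against 67.8 and 79.3 in Pim3-/- ESCs, a ratio of 1.78. L1MB went from 116.2 and 141.3 to 196.5 and 221.3, a ratio of 1.62, and L1MC from 122.2 and 135.4 to 188.1 and 210.9, a ratio of 1.55. L1MA was at 63.4 and 71.4 against 95.3 and 104.2, a ratio of 1.48. The smallest ratios were those of L1ME (114.9 and 133.0 against 175.0 and 184.3, 1.45) and HAL1 (17.6 and 22.4 against 27.8 and 29.0, 1.42), close to the 1.45 of the whole TE table. These ratios followed no order from the younger L1MA to the older L1ME. As shares of TE counts, L1MD was at 0.158% and 0.172% in WT and 0.189% and 0.216% in Pim3-/- ESCs, whereas L1ME was at 0.487% and 0.502% against 0.488% and 0.502% and HAL1 at 0.0745% and 0.0845% against 0.0776% and 0.0789%. In these last classes the groups overlapped.

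Other old repeats and the younger rodent LINE-1 elements gave ratios of the same order. The numbered L1M subfamilies had a ratio of 1.75 in CPM of the gene total, L2 and L3, a LINE group older still, 1.72, MIR, a short element of similar age, 1.76, and the rodent LINE-1 subfamilies (L1Md, Lx and relatives) 1.63. No test of these differences between repeat groups was run.

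The gene table holds a class of annotated RNAs from introns. Genes annotated as sense_intronic in GENCODE, which are RNAs placed within an intron of another gene on its strand, numbered 327. Their summed level was 44.9 and 50.3 CPM of the gene total for WT against 70.8 and 76.0 for Pim3-/- ESCs, a ratio of 1.54, or 1.13 with the gene table's TMM factors, and 1.58 without the most counted gene of the class. Both Pim3-/- libraries again lay above both WT libraries. The other annotation classes that were summed had smaller ratios. Antisense genes had a ratio of 1.07, TEC, a class of unconfirmed transcripts, 1.11, and sense_overlapping genes 0.881, where a single gene made up 40.5% of the class and the ratio without it was 1.23. With the gene table's TMM factors these ratios of sums were 0.785, 0.815 and 0.644. The antisense and TEC sums thus turned to below 1, while the sense_intronic sum stayed above it. The typical antisense or TEC gene did not fall on that scale. Over tested genes, the median log2 fold change was 0.279 for antisense (689 of 1087 above 0) and 0.246 for TEC (190 of 311). It was 0.488 for sense_intronic (20 of 32) and -0.152 for sense_overlapping genes (5 of 12), beside 0.068 over all genes. Among the 32 sense_intronic genes that passed the filter on low counts, 4 were upregulated and 3 downregulated at an adjusted p under 0.05 in the edgeR fit, not more than the 17.6% and 16.2% of all genes. Whether repeat counts and these genes share reads, and whether reads from introns or beyond gene ends made up the repeat counts, was not tested.

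Of the 65 subfamilies, 62 had enough counts for a test. The 3 left out were L1MEg2 (0 and 1 counts in WT, 3 and 0 in Pim3-/- ESCs), L1MEg1 (1 and 2 against 1 and 4) and HAL1_SS (7 and 6 against 10 and 7). Counts were uneven. The most counted subfamily, L1MB7, held 7.12% of the counts of all 65, the first 5 held 27.0% and the first 20 held 67.5%. Subfamilies differ in the number and length of their copies, so their counts say nothing of how strongly a copy is transcribed.

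Single subfamilies were compared in CPM of the TE table after scaling by TMM factors, which set the typical TE subfamily to no change. On this scale ancient LINE-1 as a group stayed in place and 3 subfamilies fell. Of the 62 tested subfamilies, 31 lay above and 31 below 0, with a median log2 fold change (Pim3-/- minus WT) of -0.0095, against 0.0058 over all 828 tested TE subfamilies. L1ME2, L1MEf and L1MC4a were downregulated in the quasi-likelihood test of edgeR (Benjamini-Hochberg adjusted p under 0.05 over all tested TEs) and none was upregulated. Of all tested TEs, 5.31% were downregulated and 3.38% upregulated by the same rule, so that 3 of 62, or 4.84%, is near that background. At an unadjusted p under 0.05, 6 of the 62 were lower and 2 higher, beside 13.4% and 12.6% of all tested TEs. The Wald test of DESeq2 called L1ME2 and L1MEf lower and none higher, beside 4.11% and 1.81%. None changed 2-fold, which 2.17% of all tested TEs did upward and 2.54% downward at an adjusted p under 0.05.

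L1ME2 had 480 and 576 WT counts against 479 and 421 counts for Pim3-/-. On the TE CPM scale it lay at 942.2 and 897.6 against 561.5 and 477.3, so that both Pim3-/- libraries lay far below both WT libraries, with a gap wider than the distance within either group. Its mean fell from 919.9 ± 31.6 to 519.4 ± 59.5 (SD, n = 2), with a log2 fold change of -0.82 (standard error 0.13, 95% interval from -1.11 to -0.53, adjusted p = 0.00607 in the edgeR test). L1MEf had 339 and 383 WT counts against 301 and 321 counts for Pim3-/-, or 665.4 and 596.8 CPM against 352.8 and 364.0. Again the groups were well apart. The log2 fold change was -0.81 (standard error 0.13, 95% interval from -1.12 to -0.51, adjusted p = 0.00836 in the edgeR test). L1MC4a had 350 and 400 counts against 400 and 409, or 687.0 and 623.3 CPM against 468.9 and 463.7. The log2 fold change was -0.49 (standard error 0.13, 95% interval from -0.78 to -0.20), with an adjusted p of 0.0498 in the edgeR test, just inside the threshold.

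The raw counts of L1ME2 and L1MEf were level or somewhat lower in Pim3-/- ESCs while most other subfamilies gained counts. The size of the fall of L1ME2 and L1MEf therefore depends on the scaling. Relative to the total of the gene table, L1ME2 was at 20.7 and 22.4 CPM of the gene total in WT against 20.9 and 19.11 in Pim3-/- ESCs, and L1MEf at 14.6 and 14.9 against 13.2 and 14.6. These ranges overlap or nearly touch. With the gene table's TMM factors, which set the typical gene to no change, L1ME2 was at -0.56 and L1MEf at -0.54 on the log2 scale. Their adjusted p in edgeR was then 0.00348 and 0.0109 with infinite prior degrees of freedom, and 0.0478 and 0.0633 with those of the TE fit. The calls were lost when either WT library was left out, as were those of all other TEs. This loss was therefore not particular to L1ME2 and L1MEf. Without WT replicate 1 the adjusted p of both L1ME2 and L1MEf was 0.391, and without WT replicate 2 it was 0.254 and 0.242, in fits where the spread of the lone WT library is assumed to equal that of the Pim3-/- libraries. Without Pim3-/- replicate 1 or 2 the calls held, in fits with infinite prior degrees of freedom, and over the 4 fits the log2 fold change of L1ME2 stayed between -0.95 and -0.71 and that of L1MEf between -0.90 and -0.72. L1MC4a was called in 4 of 15 alternative fits, with adjusted p from 0.0151 to 0.50. Without either WT library its adjusted p was 0.391 and 0.307.

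**Figure D2:**
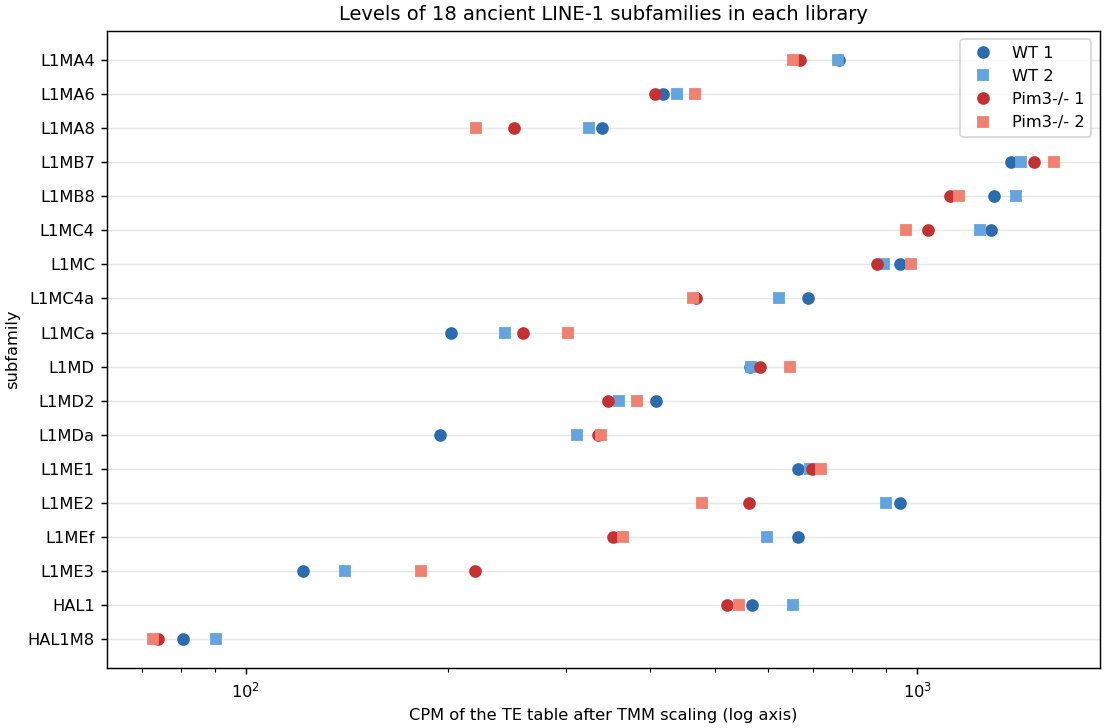
Levels of 18 ancient LINE-1 subfamilies in CPM of the TE table (log axis), 1 point per library, blue for WT and red for Pim3-/- ESCs. The red points of L1ME2 (561.5 and 477.3), L1MEf (352.8 and 364.0) and L1MC4a (468.9 and 463.7) lie to the left of the blue points, while red and blue are mixed in L1MA6, L1MC and L1MD2.

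At the upper end, L1ME3 had 62 and 90 WT counts against 187 and 161 counts for Pim3-/-, or 121.7 and 140.2 CPM against 219.2 and 182.5. The groups did not overlap, and the log2 fold change was 0.61 (standard error 0.20, 95% interval from 0.16 to 1.06), but the adjusted p was 0.0992 in the edgeR test. With 1 library left out it ran from 0.0185 (without Pim3-/- replicate 2, with infinite prior degrees of freedom) to 0.412 (without WT replicate 1). L1MDa, with 99 and 200 counts against 285 and 298, was at 194.3 and 311.7 CPM in WT and 334.1 and 337.9 in Pim3-/- ESCs. Its WT libraries were far apart, and its log2 fold change of 0.40 (adjusted p = 0.265 in the edgeR test) was 0.12 without WT replicate 1 and 0.78 without WT replicate 2. L1MCa went from 202.2 and 243.1 CPM to 259.1 and 301.6 (log2 fold change 0.33, adjusted p = 0.262 in the edgeR test). The highest value of all belonged to L1ME4c, named after its values were seen, with 23 and 28 counts against 63 and 84. It was at 45.1 and 43.6 CPM in WT and 73.9 and 95.2 in Pim3-/- ESCs (log2 fold change 0.93, standard error 0.29, 95% interval from 0.27 to 1.58, adjusted p = 0.0862 in the edgeR test). With 1 library left out its adjusted p ran from 0.00811 (without Pim3-/- replicate 1, with infinite prior degrees of freedom) to 0.391 (without WT replicate 1), and it was 0.152 without Pim3-/- replicate 2.

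Among the L1MA subfamilies, 3 of 9 lay above 0, and the median log2 fold change was -0.09. L1MA8 was lowest, with 339.6 and 324.1 CPM in WT and 250.9 and 220.0 in Pim3-/- ESCs (log2 fold change -0.49, 95% interval from -0.85 to -0.14). The adjusted p was 0.0921 in the edgeR test, and with 1 library left out it ran from 0.0208 (without Pim3-/- replicate 1, with infinite prior degrees of freedom) to 0.40 (without WT replicate 1). The most counted, L1MA4, was at 765.6 and 762.0 CPM against 668.2 and 654.2 (log2 fold change -0.21). The groups of L1MA4 did not overlap, but its 95% interval, from -0.46 to 0.05, held 0. L1MA6, the next in count, was at 418.1 and 439.4 CPM against 406.8 and 466.0, with the WT libraries lying between the Pim3-/- libraries.

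The L1MB class held the most counted subfamily, and its log2 fold changes stayed within -0.25 and 0.28. L1MB7 had 703 and 916 WT counts against 1275 and 1413 counts for Pim3-/-. On the TE CPM scale it lay at 1380 and 1427 against 1495 and 1602 (log2 fold change 0.14, 95% interval from -0.08 to 0.36). L1MB8 moved the other way, from 1303 and 1404 CPM to 1118 and 1155 (log2 fold change -0.25, standard error 0.10, 95% interval from -0.48 to -0.03, adjusted p = 0.158 in the edgeR test). Neither pair of groups overlapped, and neither subfamily passed the test.

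In the L1MC class, 7 of 11 lay above 0 with a median of 0.04. L1MC4, the namesake of the downregulated L1MC4a, had 657 and 797 WT counts against 885 and 848 counts for Pim3-/-, or 1290 and 1242 CPM against 1037 and 961.5. The log2 fold change was -0.34 (standard error 0.10, 95% interval from -0.57 to -0.11) with an adjusted p of 0.0803 in the edgeR test. With 1 library left out it ran from 0.0176 (without Pim3-/- replicate 1, with infinite prior degrees of freedom) to 0.417 (without WT replicate 1). L1MC itself was at 942.2 and 892.9 CPM against 872.1 and 979.6. These ranges overlapped, with a log2 fold change of 0.01.

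The L1MD class lay highest, with 5 of 6 above 0 and a median log2 fold change of 0.12. L1MD was at 563.4 and 565.7 CPM in WT and 583.8 and 647.4 in Pim3-/- ESCs (log2 fold change 0.13, 95% interval from -0.16 to 0.41). L1MD2, the one below 0, was at 408.3 and 360.0 CPM against 345.8 and 382.1. No L1MD subfamily passed the edgeR test, and none had an unadjusted p under 0.05.

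L1ME, the largest and oldest class, was also the most spread of these classes. Its 25 tested subfamilies ran from -0.82 (L1ME2) to 0.93 (L1ME4c), with 12 above 0 and a median of -0.04. Their interquartile range was 0.56, against 0.13 to 0.28 in the L1MA to L1MD classes. Over all tested TEs it was 0.58, so the spread of L1ME was near that of TEs in general. Many L1ME subfamilies had few counts, with a median of 49.5 per library, and their median standard error was 0.27. L1ME1, the most counted of the class, was at 663.5 and 691.9 CPM in WT and 696.3 and 720.0 in Pim3-/- ESCs (log2 fold change 0.06, 95% interval from -0.20 to 0.32), so that L1ME1 and L1ME2, of similar count, lay far apart. The difference between these subfamilies was not tested. All 4 tested HAL1 subfamilies lay below 0, between -0.26 and -0.18, and none passed the edgeR test or had an unadjusted p under 0.05. HAL1 was at 567.3 and 652.9 CPM in WT and 520.5 and 543.1 in Pim3-/- ESCs (log2 fold change -0.20, 95% interval from -0.50 to 0.10), and HAL1M8 at 80.5 and 90.4 against 73.9 and 72.6 (log2 fold change -0.23). With TEs scaled by the gene table instead, all 4 lay above 0.

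**Figure D3:**
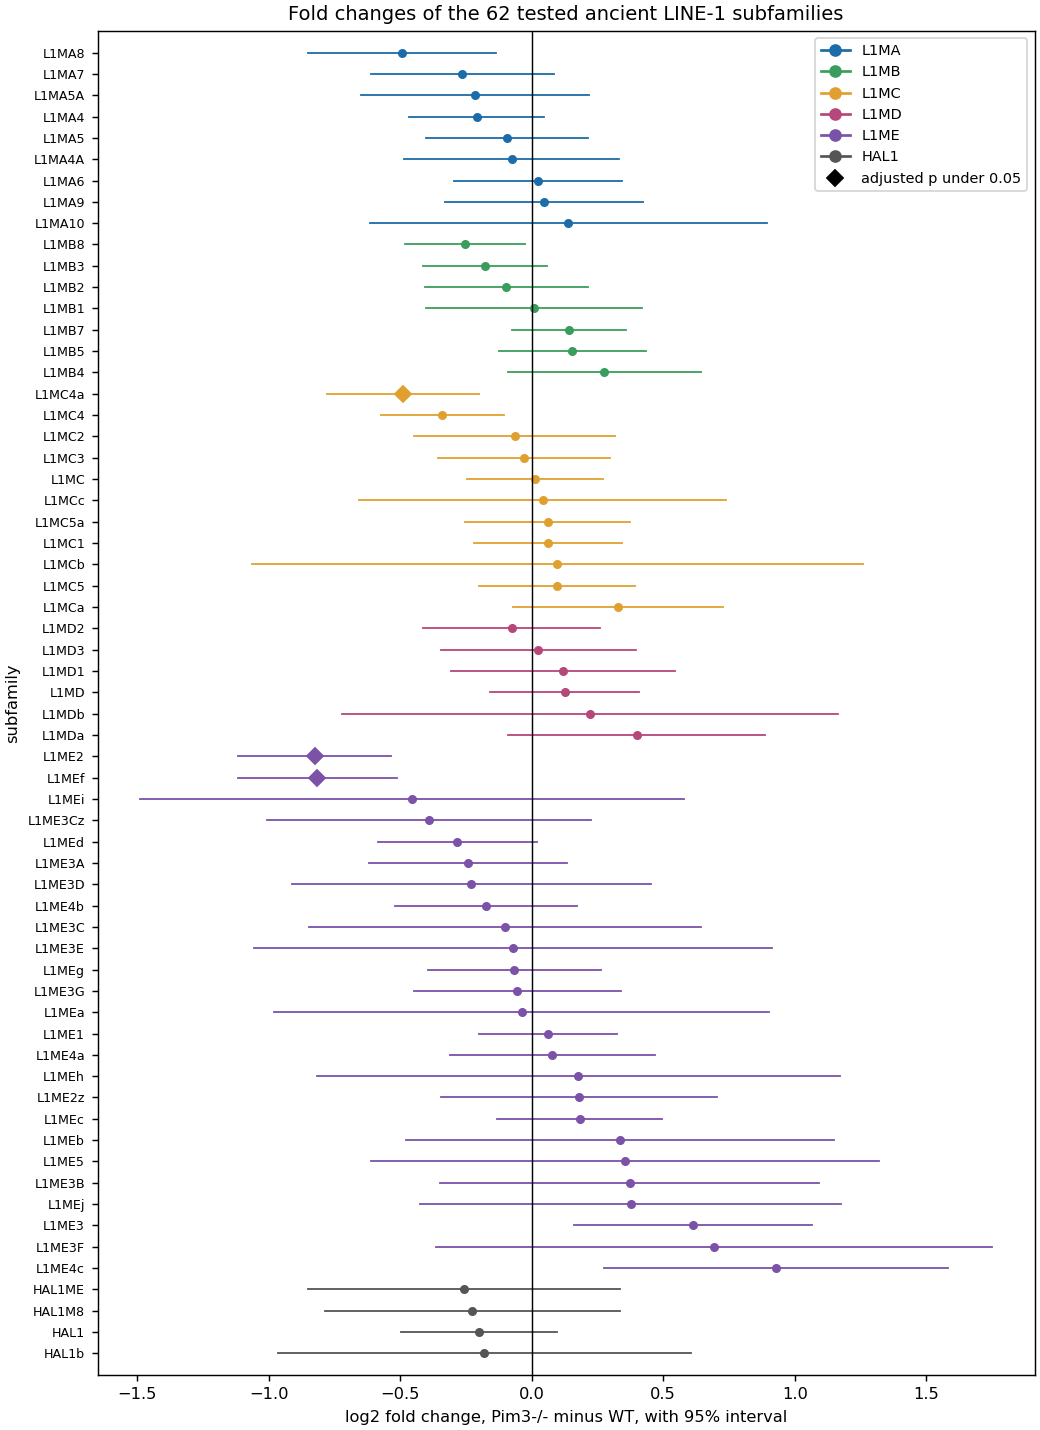
Log2 fold changes (Pim3-/- minus WT, CPM of the TE table) of the 62 tested ancient LINE-1 subfamilies with 95% intervals, ordered by class and value, n = 2 libraries per group. Diamonds mark L1ME2, L1MEf and L1MC4a, the subfamilies with an adjusted p under 0.05. The intervals of 54 subfamilies hold 0, and the L1ME class spans the widest range, from -0.82 to 0.93.

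Over the 62 subfamilies, the median absolute log2 difference was 0.131 between the WT libraries and 0.138 between the Pim3-/- libraries. The median absolute log2 fold change between the groups, a difference of means of 2 libraries and so not on the same footing, was 0.179. Over all 828 tested TEs these values were 0.197, 0.205 and 0.298. The libraries of the groups did not overlap in 15 subfamilies that were higher and 18 that were lower in Pim3-/- ESCs, beside 29.2% of all tested TEs that were higher and 29.1% that were lower without overlap. For 47 of the 62 the 95% interval stayed within 1 of 0 on the log2 scale, as it did for 59.5% of all tested TEs, so that a 2-fold change lay outside it. In the other 15 the interval reached past a 2-fold change. It held 0 as well in 11 of them, where neither could be told apart at this depth, and left out 0 in L1ME2, L1MEf, L1ME3 and L1ME4c. Standard errors shrank with the counts, from a median of 0.36 among the 17 subfamilies with under 50 counts on average to 0.11 among the 8 with 500 and over.

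The range of the fold changes did not narrow evenly with the counts. Subfamilies with under 50 counts ran from -0.46 to 0.93, with 11 of 17 above 0, and those from 50 to 200 counts from -0.49 to 0.61. Those from 200 to 500 counts, L1ME2 and L1MEf among them, ran from -0.82 to 0.40, and those with 500 and over from -0.34 to 0.15, with 4 of 8 above 0. Across the 62 subfamilies, which share the libraries and are not independent, the log2 CPM and the log2 fold change correlated at a Pearson r of -0.31 and a Spearman rho of -0.26. Over all 828 tested TEs these were -0.204 and -0.197.

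**Figure D4:**
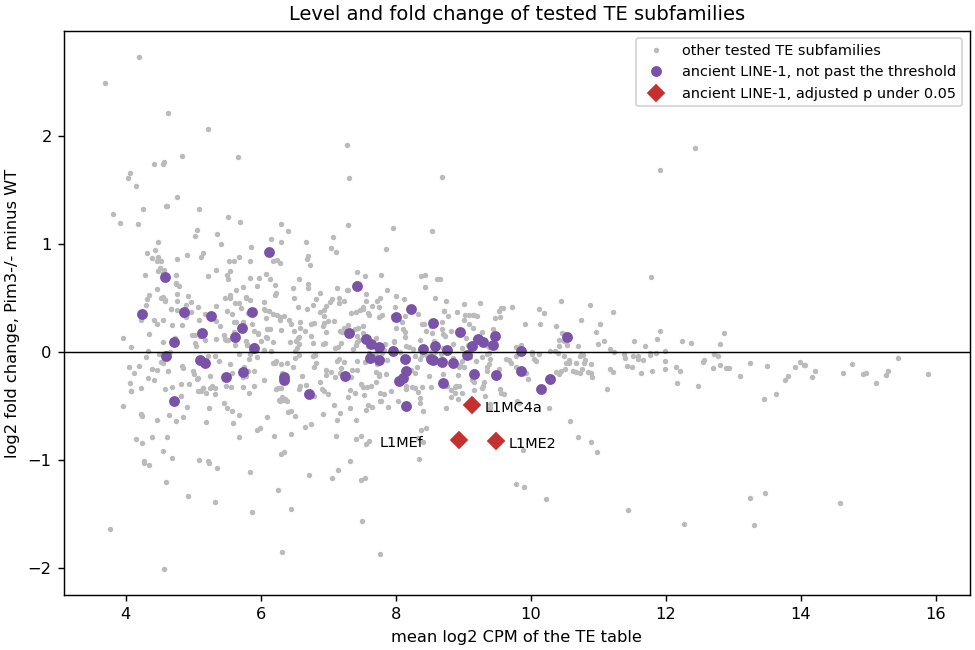
Mean log2 CPM of the TE table against the log2 fold change (Pim3-/- minus WT) for the 828 tested TE subfamilies, 1 point each. The 62 ancient LINE-1 subfamilies (purple, with L1ME2, L1MEf and L1MC4a as red diamonds) lie within -0.82 and 0.93, inside the range of the other TEs (grey), which run from -2.01 to 2.74.

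The direction of many single subfamilies depended on what the counts were divided by. With the totals of the TE table in place of TMM factors the median of all TEs moved by 0.18, with the effective library sizes of the gene table by 0.262 and with the totals of the gene table by 0.71. The ancient LINE-1 median moved along, from -0.0095 to 0.18, 0.26 and 0.71. Relative to the median of all TEs it lay between -0.05 and 0.04 under every one of the 15 alternatives. With the totals of the TE table L1ME3 and L1ME4c were upregulated and L1ME2 and L1MEf downregulated, beside 8.45% and 3.26% of all TEs. With the gene table's TMM scaling 54 of the 62 lay above 0, beside 76.2% of all tested TEs, and L1ME3 was upregulated and L1ME2 downregulated, beside 5.80% and 2.17% of all TEs. This count took its prior degrees of freedom from the TE fit, a setting chosen after the data were seen, because the fit's own were infinite. With the totals of the gene table, 42 were upregulated and none downregulated in edgeR, beside 65.5% and 1.69% of all TEs, again with infinite prior degrees of freedom. L1ME2 and L1MEf lay below 0 under all 15 alternatives, and L1MC4a under 14, the exception being the totals of the gene table, at 0.23.

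**Figure D5:**
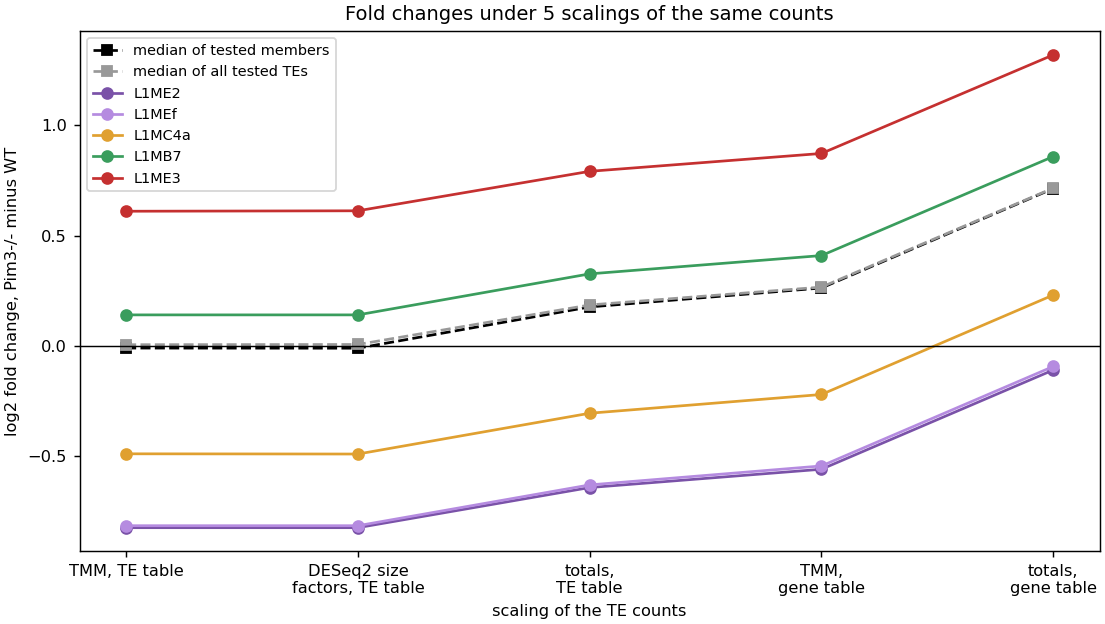
Log2 fold changes (Pim3-/- minus WT) of L1ME2, L1MEf, L1MC4a, L1MB7 and L1ME3 and the medians of the 62 ancient LINE-1 subfamilies and of all tested TEs (dashed) under 5 scalings of the same counts. The lines are flat over the first 2 scalings and then rise together, and the order of the subfamilies is kept while the position of 0 changes, with the ancient LINE-1 median going from -0.0095 to 0.71.

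Genes listed for LINE-1 or for stray nuclear transcripts were read from the gene table. They are given in CPM of that table after its own TMM scaling and in the edgeR fit of all 18444 tested genes. The shares of all genes called were 17.6% upward and 16.2% downward in that fit, and 35.8% upward and 5.92% downward when library totals were used. These gene lists were written from general knowledge, but with earlier results of these data known, so they are not independent of the data. L1td1, a gene of ESCs descended from a LINE-1 ORF1, fell from 363.2 ± 6.64 CPM in WT to 230.7 ± 16.9 (SD, n = 2), with a log2 fold change of -0.65 (adjusted p = 0.0282 in the edgeR test). Scaled by library totals alone it was -0.20, with an adjusted p of 0.402 in edgeR. That change of scaling moved the median of all genes by 0.45.

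Nuclear RNA decay genes were the list with the most falls. The nuclear exosome and its cofactors degrade introns, read-through tails and other stray RNA in the nucleus. Of 25 tested, 15 were downregulated and none upregulated by edgeR, with a median log2 fold change of -0.78 against 0.07 over all genes. The Wald test of DESeq2 called none upregulated and 16 downregulated. No share of all genes is given here for that test or for the unadjusted p. Counts by these rules can therefore not be read against a background and add no support to the edgeR count. At an unadjusted p under 0.05, 1 gene of the list was higher, Tent4b. It adds tails to nuclear RNA and was named after its values were seen. With library totals 1 gene of the list was downregulated and 3 were upregulated, against the 35.8% of all genes upregulated at that scaling. The exosome core subunit Exosc8 had 3339 and 3328 WT counts against 2125 and 1709 counts for Pim3-/- (log2 fold change -1.14, adjusted p = 0.00649 in the edgeR test). Exosc10, the nuclear ribonuclease of the complex, had 3280 and 4019 against 2638 and 2006 (log2 fold change -0.98). Exosc6, another core subunit, was at -0.91 and Zcchc7, an RNA-binding cofactor, at -0.88. For each of these genes both Pim3-/- libraries were below both WT libraries in raw counts. They were named for the smallest p of the list, so this follows largely from the choice and adds no support. With library totals only Exosc8 of these 4 passed. Without WT replicate 1 none of them did, with adjusted p from 0.0702 to 0.103 in edgeR, and without WT replicate 2 only Exosc8 did.

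Of 28 genes of 3' end formation and transcription termination, 7 were downregulated and 2 upregulated. With library totals 2 were downregulated and 7 upregulated, again beside 5.92% and 35.8% of all genes. Ssu72, a phosphatase of the RNA polymerase II tail, was at -1.25 on the log2 scale, with 4210 and 4147 WT counts against 2491 and 1974. The cleavage factor genes Clp1 and Cstf1 were at -1.14 and -0.93. Rbbp6, a further factor of the cleavage machinery, rose, from 418 and 548 counts to 1128 and 1403 (log2 fold change 1.07, adjusted p = 0.00775 in the edgeR test).

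Of 30 genes listed under LINE-1 restriction, 6 were downregulated and 2 upregulated, and with library totals 4 and 8, beside 5.92% and 35.8% of all genes. Whether each of them restricts LINE-1 in these cells was not tested. Rnaseh2c and Rnaseh2a, subunits of the enzyme that cuts RNA paired with DNA, were at -1.56 and -1.36 on the log2 scale. Ercc1, part of a DNA repair endonuclease, was at -1.27, and Dnmt3b, a de novo DNA methyltransferase, fell from 2448 and 3559 counts to 1781 and 1271 (log2 fold change -1.30, adjusted p = 0.00636 in the edgeR test). Of 10 LINE-1 derived and germline genes, 6 were upregulated and L1td1 downregulated. The piRNA pathway genes Mael, Piwil1, Asz1 and Tdrd1 were at 1.70, 2.42, 1.79 and 1.76. Mael had 288 and 315 WT counts against 975 and 1484 counts for Pim3-/-, and the other 3 stayed under 100 counts in every library. Piwil1, with 3 and 7 WT counts against 35 and 33, passed the filter on low counts only through the Pim3-/- libraries. The 17 genes named from these lists were L1td1 and those with the smallest p of each list. Counts among them describe only these chosen genes, and no share of all genes is set beside them. Of the 17, 12 kept an adjusted p under 0.05 in edgeR with library totals. Without WT replicate 1 this held for 4 of them (Rnaseh2c, Ercc1, Dnmt3b and Mael), and without WT replicate 2 for 7 (Rnaseh2a, Ssu72 and Exosc8 besides). The part of any of these genes in the repeat counts was not tested.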

How the data were processed

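The comparison was of 2 WT with 2 Pim3-/- libraries. Per the paper they came from a pair of biological samples of WT ESCs and a pair of Pim3-/- clones. The authors deposited raw counts per gene (Ensembl) and per TE subfamily (RepeatMasker), which were used without processing reads again. The paper names Cutadapt and Hisat2, the submitters' processing notes Trim Galore, STAR and featureCounts on GRCm38. Versions, and the treatment of strand and of reads with several locations, are not given in the sources used here.

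Features with low counts were left out with filterByExpr (minimum count 10, minimum total 15) of edgeR 4.0.16. The quasi-likelihood test was fitted to the whole TE table and the whole gene table, with TMM factors within each, with Benjamini-Hochberg adjustment over each table. Alternatives were other scalings and filters, DESeq2 1.42.0, a joint fit of both tables, a block for the replicate number and leaving out each library (R 4.3.3, limma 3.58.1, Python 3.11.15, matplotlib 3.10.9). The scripts were tested on simulated data. Gene classes came from GENCODE M21, in which 55383 of 55418 symbols had a class.

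Subfamilies named are those with an adjusted p under 0.05, the 2 most counted of each class and the 3 highest and 3 lowest with at least 50 counts on average. Genes named are L1td1 and the 4 with the smallest p of each list. Members, lists and tests were chosen with earlier results of these data known.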

Additional observations from a re-analysis of the deposited data

How the results depend on the processing

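With DESeq2 size factors L1MC4a was no longer called, while L1ME2 and L1MEf were. With TMM factors from the other TEs all 3 were called. With the totals of the TE table, 2 ancient LINE-1 subfamilies were higher, with a median of 0.18, and 70 and 27 of all TEs higher and lower. With the gene table's effective library sizes 8 were higher (median 0.26) and 174 of all TEs, with its totals 42 were higher and 0 lower (median 0.71) and 542 and 14 of all TEs, both with infinite prior degrees of freedom. The gene table's scaling with the TE fit's prior degrees of freedom, chosen after seeing the data, gave 1 higher and 1 lower (median 0.26), and 48 and 18 of all TEs. One fit over genes and TEs called 0 lower (median 0.25), and 5 and 7 of all TEs. All TEs higher numbered 17 without a filter, 14 with at least 10 counts in every library and 15 in the Wald test. With the gene table's totals HAL1 and L1MA4 turned to 0.51, L1MB8 to 0.46, L1MC4 to 0.38, L1MD2 to 0.65 and L1MC4a to 0.23. The summed log2 ratio of 0.10 became 0.63 over gene counts. Library totals gave 6606 higher and 1092 lower genes, against 3246 and 2987. The cause of these changes was not tested beyond the scaling itself.

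With 1 library left out, 0 to 1 ancient LINE-1 subfamilies were higher and 0 to 5 lower, 0 to 68 and 0 to 94 of all TEs, and 402 to 5393 and 373 to 5255 genes. Without either WT library no TE was called. The replicate numbers do not pair the samples in the labels (correlation of deviations 0.025), and the replicate block called 0 higher and 3 lower ancient LINE-1 subfamilies and 45 and 63 of all TEs, with infinite prior degrees of freedom. Depth limits the 17 subfamilies under 50 counts, whose standard errors run from 0.29 to 0.51.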
